A study of Mus musculus with 12 samples.

Results

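Imprinted growth-regulating genes were followed in C2C12 cells, an immortalized mouse myoblast line, through differentiation with and without PFI-3, a ligand of the bromodomains of BRM and BRG1, the ATPases of the SWI/SNF chromatin remodellers. The members were taken by gene symbol from a list of 10 genes (Dlk1, Mest, Peg3, Grb10, Ndn, Plagl1, Peg10, Sgce, Zdbf2 and Impact) out of 16288 genes with a value in any library. Values were found for 9 of the 10 members, and Dlk1 was not analysed here. RNA-seq had been done on 12 libraries in 6 groups of 2. The groups were proliferating cells in growth medium (labelled GM) and cells 24 h and 48 h after a change to differentiation medium with horse serum and insulin (labelled DM 24h and DM 48h, and called 24 h and 48 h here), each with DMSO, the vehicle, or with 50 uM PFI-3. All groups, GM included, had been pretreated with DMSO or PFI-3 for 12 h, and in the DM groups the agent was renewed every 24 h. The duplicates are labelled A and B and described as biological. Nothing in the sources used here says whether they were separate cultures, so p-values measure only the spread between these libraries. The tables hold no allele-specific values, so imprinting itself was not measured.

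Imprinted genes are transcribed from only the maternal or only the paternal copy, a choice set by DNA methylation laid down in the germ line and kept after fertilisation by factors such as ZFP57 and TRIM28. Many of the paternally expressed members promote growth of the fetus or act in progenitor cells, whereas maternally expressed Grb10 restrains growth. Several members, such as Mest, Peg3 and Plagl1, belong to a set of imprinted genes that are high in fetal tissues and switched down after birth. Igf2, which is not a member, belongs to it too, and skeletal muscle precursors are among the cells that express these genes.

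Library totals lay between 12576374 and 13658352 expected counts. The duplicates were farther apart in GM than in DM: the SD across 10656 genes of the log2 ratio of replicate B to replicate A was 0.38 and 0.346 in the GM groups and 0.145 to 0.175 in the DM groups. Among the members the widest GM pair was Mest with DMSO, where the log2 ratio was 1.41. The 8 myogenic markers (Myod1, Myf5, Des, Cdh15, Myog, Myh3, Ckm and Acta1) all had values. Their summed level was 792 to 814 CPM in GM with DMSO and 497 to 622 CPM with PFI-3, 3629 and 3629.9 against 2066 to 2083 at 24 h, and 16989 to 17135 against 11804 to 12246 at 48 h (CPM is the count scaled to a common library total with TMM factors). The sum mostly follows abundant genes such as Acta1 (up to 75858 counts) and Myh3 (up to 62317). Myf5 was at 488 counts or more and Myod1 at 1548 or more in every library, so the markers of the labelled cell type were present. Of the markers of other lineages, 3 of 7 for adipocytes, 4 of 6 for bone and cartilage and 7 of 7 for neural and blood cells had values. The defining ones were at or near 0: Adipoq reached at most 1 count, Fabp4 3, Sp7 5, Sox10 1, Ptprc 2 and Pecam1 2. Pparg (37 to 321 counts), Sox9 (783 to 1292) and Cd68 (11 to 127), which other cells also express, were higher, and Pparg rose with PFI-3 at 48 h (log2 fold change 0.77, SE 0.24, adjusted p = 0.035). In bulk RNA, fewer cells of a type and less RNA per cell cannot be told apart.

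The promoters of Mest and Plagl1 are shown because both genes were higher in differentiation medium and lower there with PFI-3. Each line gives 250 bases before to 50 after a RefSeq transcription start of GRCm38.p6, 5′ to 3′ in the direction of transcription, with capitals for the hexamer TGCCGC, the core of the ZFP57 motif, or its reverse complement GCGGCA.
Mest (chr6:30737800-30738099, + strand): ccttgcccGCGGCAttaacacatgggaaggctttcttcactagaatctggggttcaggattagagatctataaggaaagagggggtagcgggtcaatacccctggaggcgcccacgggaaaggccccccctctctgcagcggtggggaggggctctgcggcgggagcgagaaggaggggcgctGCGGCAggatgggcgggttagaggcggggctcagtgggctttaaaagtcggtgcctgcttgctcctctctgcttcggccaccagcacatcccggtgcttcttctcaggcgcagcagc
Plagl1 (chr10:13090582-13090881, + strand): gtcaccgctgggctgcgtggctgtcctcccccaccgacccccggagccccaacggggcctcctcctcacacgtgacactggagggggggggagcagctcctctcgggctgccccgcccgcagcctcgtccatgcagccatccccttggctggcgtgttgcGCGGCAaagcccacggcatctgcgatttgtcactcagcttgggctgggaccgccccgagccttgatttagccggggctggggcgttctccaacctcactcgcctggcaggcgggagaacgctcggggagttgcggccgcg
The Mest window held 2 such hexamers and the Plagl1 window 1, where 11.6% of 32851 promoters of this length held any. RefSeq gives 3 Mest starts: the window of the first (chr6:30733256-30733555) held no such hexamer and had a ratio of observed to expected CpG of 0.33 and 2 E-boxes (CANNTG), and that of the third lies 3 bases from the one shown. The hexamer was also present in 1 of 2 windows of Zdbf2 (3 times) and 1 of 2 of Grb10 (1 time), which were not called with PFI-3, and in none of Peg3 or Ndn. In the windows shown, the ratios of observed to expected CpG were 0.59 for Mest and 0.70 for Plagl1, against a median of 0.384 over all promoters. The E-box letters CANNTG, searched on both strands, were present 1 time in the Mest window and 2 times in that of Plagl1, and 72.3% of all promoters held them. A match is a description of letters and not of a bound site. The Peg3 promoter (chr7:6730370-6730669, - strand) held none of the 3 motifs searched, which were TGCCGC, the YY1 letters GCCATNTT (in 6.1% of all promoters) and CANNTG.

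Compared per transcript length as FPKM (fragments divided by transcript length and by library size, the deposited unit), the order of the members changed with stage. In GM with DMSO the highest were Impact at 21.4 ± 3.42 FPKM (SD, n = 2), Peg3 at 21.2 ± 8.0 and Peg10 at 16.6 ± 6.29, and the libraries of these 3 genes overlapped. Sgce followed at 11.8 FPKM, then Mest at 5.42 and Ndn at 2.90, which overlapped each other, then Plagl1 at 0.915. Grb10 was at 0.01 FPKM and Zdbf2 was listed at 0. By 24 h with DMSO, Mest led at 644 ± 15.8 FPKM, ahead of Peg3 at 64.0, Impact at 24.3, Peg10 at 20.7, Sgce at 18.4, Plagl1 at 9.83 and Ndn at 3.35, with no overlap between neighbours. By 48 h Plagl1 had moved to the third place at 28.3 ± 2.39 FPKM, behind Mest at 559 and Peg3 at 79.2. Sgce at 17.4 and Impact at 16.2 FPKM overlapped at that stage. With PFI-3 at 48 h Plagl1 was in the fifth place at 12.5 FPKM, overlapping Peg10 at 12.2. Grb10 and Zdbf2 were the lowest members in every group.

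**Figure D1:**
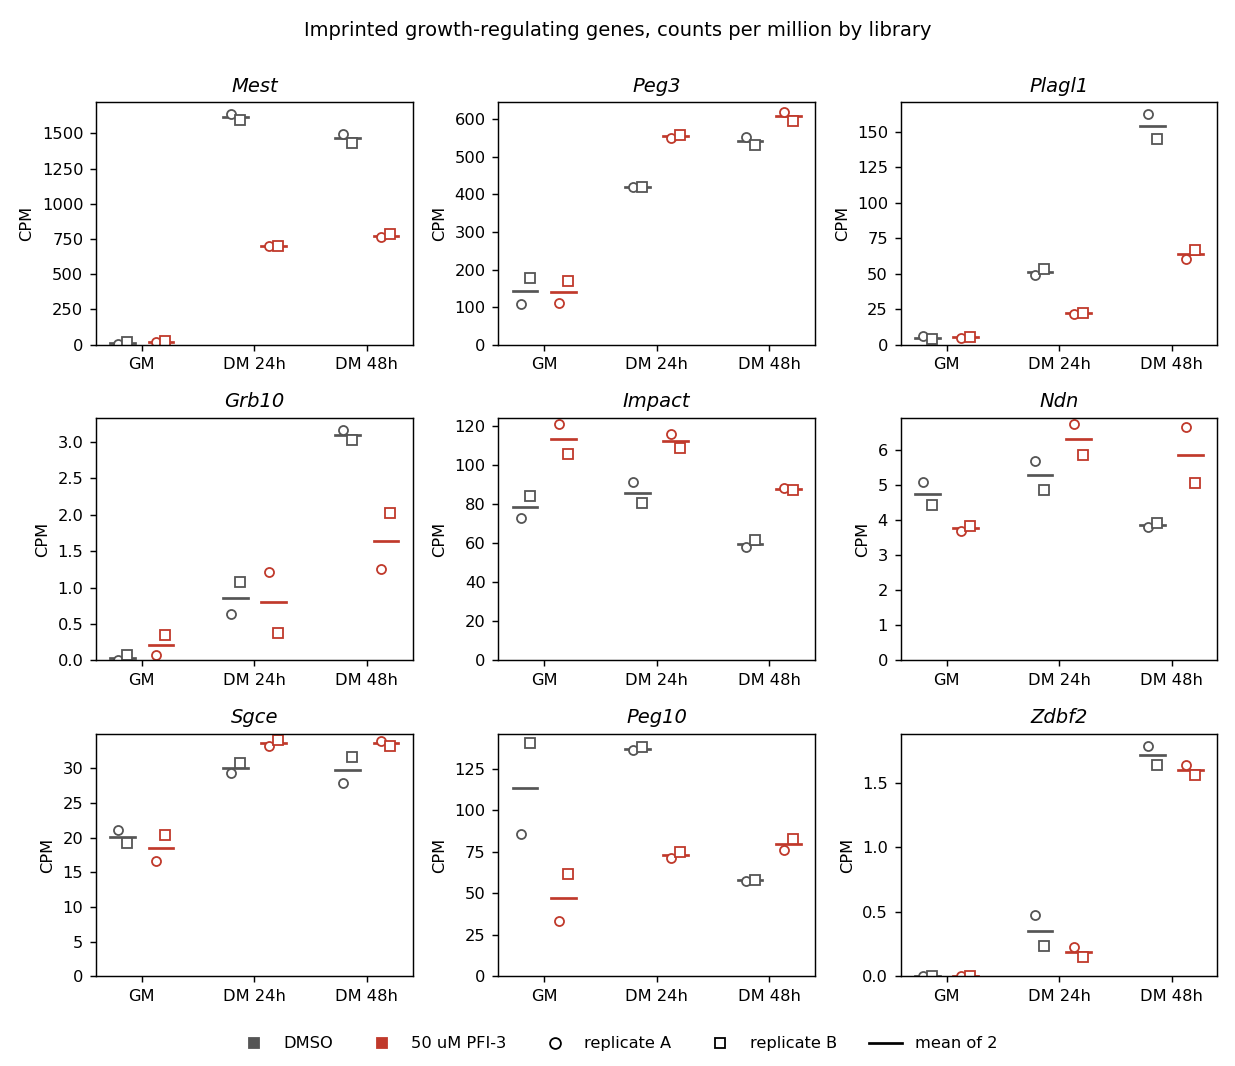
CPM (y axis, linear from 0, own scale per gene) of the 9 members with values in GM, 24 h and 48 h (x axis), with DMSO in grey and 50 uM PFI-3 in red. Circles are replicate A, squares replicate B and lines the mean of 2. Mest and Plagl1 are lower with PFI-3 at both DM stages, Impact is higher with it at all 3 stages, and Peg10 lies below DMSO in GM and at 24 h and above it at 48 h.

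Mest (NCBI Gene 17294, chr6:30733506-30748466), a paternally expressed gene for an alpha/beta-hydrolase fold protein whose loss restricts fetal growth, had the largest stage change of the members with counts above 3 in every library. Its counts with DMSO were 97 and 273 in GM, 20678 and 20575 at 24 h, and 18395 and 17540 at 48 h. With PFI-3 they were 224 and 314 in GM, 9247 and 9195 at 24 h, and 9732 and 10043 at 48 h. All 4 GM libraries were low and overlapped between treatments, and at both DM stages the libraries with PFI-3 lay below both with DMSO. The mean CPM with DMSO was 116 times that of GM at 24 h (log2 fold change 6.85, SE 0.29, adjusted p = 2.02e-09) and 106 times at 48 h (6.71, SE 0.29, adjusted p = 7.77e-10). Without replicate B of GM with DMSO these log2 fold changes were 7.73 and 7.59. The change from 24 h to 48 h did not pass the test (-0.14, SE 0.21, adjusted p = 0.616).

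With PFI-3, Mest was at 43.5% of the DMSO level at 24 h (702 ± 1.66 against 1616 ± 33.0 CPM, SD, n = 2 each). The log2 fold change was -1.20 (SE 0.21, adjusted p = 0.00202). At 48 h Mest was at 52.8% (773 ± 15.4 against 1465 ± 43.2 CPM), a difference of -0.92 on the log2 scale (SE 0.21, adjusted p = 0.00699). In GM the difference did not pass the test (0.47, SE 0.29, adjusted p = 0.315). That GM value rests on the 2 DMSO libraries: it was -0.06 without replicate A and 1.35 without replicate B, where it was called (adjusted p = 0.000187). The 48 h call was lost with DESeq2, with limma at both pseudocounts, and without DMSO replicate A or either PFI-3 replicate, with adjusted p-values up to 0.0994.

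Copg2 (chr6:30747554-30896815), which encodes a coat protein subunit and is imprinted in some tissues, lies tail to tail with Mest on the opposite strand. In the annotation the exons of the genes share 912 bases, which are 32.9% of the exonic bases of Mest and 23.0% of those of Copg2. Copg2 moved with Mest: its level at 24 h with DMSO was 14.5 times that in GM, and with PFI-3 it was at 51.1% of DMSO at 24 h (log2 fold change -0.97, SE 0.09, adjusted p = 1.22e-05) and at 54.8% at 48 h (-0.87, SE 0.09, adjusted p = 1.92e-05). The Copg2 count above its GM mean of 449.8 was 0.254 to 0.29 per Mest count in all 8 DM libraries. Whether the counting used strand is not given in the sources used here, and without it reads of the shared bases cannot be assigned to either gene. Expected counts of both genes were whole numbers (within 0.005) in 12 of 12 libraries. In Snrpn and Snurf, which share transcripts, they were whole in 4 of 12. The part of shared reads in the Copg2 values was not tested.

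**Figure D2:**
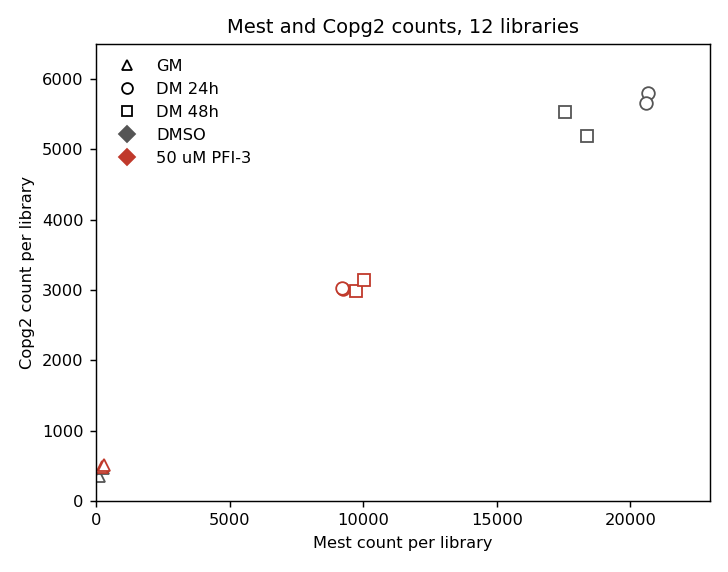
Copg2 count (y axis) against Mest count (x axis) in each of the 12 libraries, with triangles for GM, circles for 24 h, squares for 48 h, grey for DMSO and red for 50 uM PFI-3. The 4 GM libraries sit near the origin, the 4 DM libraries with PFI-3 at 9195 to 10043 Mest counts, and the 4 with DMSO at 17540 to 20678.

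Plagl1 (NCBI Gene 22634, chr10:13090832-13131694), a paternally expressed zinc finger factor also known as Zac1 that can arrest the cell cycle, rose at each step with DMSO. Its counts with DMSO were 75 and 55 in GM, 619 and 690 at 24 h, and 2009 and 1773 at 48 h. The corresponding counts with PFI-3 were 66 and 79, then 287 and 292, then 775 and 860. The treatments overlapped in GM and were apart at both DM stages, with every PFI-3 library below every DMSO library. With DMSO the mean CPM was 10.3 times that of GM at 24 h (log2 fold change 3.37, SE 0.14, adjusted p = 2.08e-09) and 31.0 times at 48 h (4.96, SE 0.14, adjusted p = 1.83e-11), and it rose 3.01-fold from 24 h to 48 h (1.59, SE 0.10, adjusted p = 1.32e-07).

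PFI-3 cells held 43.0% of the DMSO level of Plagl1 at 24 h (22.1 ± 0.305 against 51.2 ± 3.07 CPM, SD, n = 2 each) and 41.5% at 48 h (63.9 ± 4.55 against 154 ± 13.0 CPM). On the log2 scale these are -1.22 (SE 0.12, adjusted p = 2.05e-05) and, for 48 h, -1.27 (SE 0.10, adjusted p = 4.32e-06), and each was called in all 13 alternatives computed. In GM the log2 fold change was 0.08 (SE 0.19, adjusted p = 0.831). The rise from 24 h to 48 h was of like size in both treatments, 3.01-fold with DMSO and 2.90-fold with PFI-3, and the PFI-3 effect differed between these stages by -0.05 (SE 0.15, adjusted p = 0.864). Of the other PLAG family genes, Plagl2 had log2 fold changes of -0.01 at 24 h and 0.10 at 48 h (SE 0.11 each) and Plag1 of 0.38 and 0.78 (SE 0.44 and 0.45), with adjusted p-values of 0.232 or more. The summed myogenic markers were also lower with PFI-3 at both stages, by the ranges given above. At each of these stages 5 of the 8 were called lower (Acta1, Cdh15, Ckm, Myh3 and Myog), and Myod1, Myf5 and Des were not called. Across all genes 11.4% were called lower at 24 h and 14.0% at 48 h. The part of these markers in the Mest and Plagl1 differences was not tested.

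Peg3 (NCBI Gene 18616, chr7:6703892-6730462), a paternally expressed zinc finger gene involved in fetal growth and maternal care, rose with differentiation and was not called with PFI-3. With DMSO its counts were 1382 and 2401 in GM, 5284 and 5436 at 24 h, and 6795 and 6518 at 48 h. With PFI-3 they were 1532 and 2388, then 7238 and 7324, then 7913 and 7637. GM libraries overlapped, and at both DM stages the PFI-3 libraries were the higher ones. The mean CPM with DMSO was 2.94 times that of GM at 24 h (log2 fold change 1.55, SE 0.20, adjusted p = 3.25e-05) and 3.80 times at 48 h (1.93, SE 0.20, adjusted p = 2.7e-06). With PFI-3 the level was 132% of DMSO at 24 h (log2 fold change 0.40, SE 0.19, adjusted p = 0.154) and 112% at 48 h (0.16, SE 0.19, adjusted p = 0.573). A fit of the 4 libraries of a stage alone called both differences (adjusted p = 1.05e-12 and 0.00349). Of the 6 genes listed as PEG3 partners, Bax, a pore-forming apoptosis gene, and the deacetylase gene Hdac4 rose with PFI-3 at 24 h, by 0.47 (SE 0.09, adjusted p = 0.00358) and 0.41 (SE 0.10, adjusted p = 0.0142) on the log2 scale. At 48 h 2 of the 6 rose (Hdac1 and Siah1b) and 1 fell (Siah1a). Among all genes, 12.2% were called higher at 24 h, and 13.4% higher and 14.0% lower at 48 h.

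Grb10 (NCBI Gene 14783, chr11:11930499-12037428) encodes an adaptor that binds the insulin and IGF1 receptors and dampens their signal. It was near the limit of detection in GM, with DMSO counts of 0 and 1, then 8 and 14 at 24 h and 39 and 37 at 48 h. With PFI-3 the counts were 1 and 5, then 16 and 5, then 16 and 26. The gene passed the low-count filter only through its DM libraries, so its stage calls are a description. Summed over each pair and scaled by library size, the DMSO level at 48 h was 3.60 times that at 24 h (exact 95% interval 2.21 to 6.07, counting error only). At 48 h both PFI-3 libraries lay below both DMSO libraries, at a ratio of 0.53 (0.355 to 0.782), but the difference did not pass the test (adjusted p = 0.149), while a fit of those 4 libraries alone called it (adjusted p = 0.0153). At 24 h the libraries overlapped, at a ratio of 0.928 (0.486 to 1.77).

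Among the 10 tested genes of insulin and IGF receptor signalling, the pathway on which Grb10 acts, Irs2 and Irs1, the receptors' main docking proteins, moved in opposite directions in GM. Irs2 rose by 1.00 (SE 0.09, adjusted p = 6.8e-05) and Irs1 fell by 0.37 (SE 0.08, adjusted p = 0.0107) on the log2 scale, and the same 2 genes were called in these directions at 24 h. At 48 h 5 of the 10 fell (Akt2, Igf1r, Insr, Irs1 and Irs2) and 1 rose, Pik3r1, the regulatory subunit of PI3 kinase (0.72, SE 0.12, adjusted p = 0.00107). The shares of all genes called higher and lower were 5.46% and 6.15% in GM, 12.2% and 11.4% at 24 h, and 13.4% and 14.0% at 48 h. Ddc and Cobl, which flank Grb10 on chromosome 11 and were picked here after their values were seen, were both lower with PFI-3 at 24 h, with log2 fold changes of -0.65 (adjusted p = 0.0482) and -0.79 (adjusted p = 0.00496). At 48 h Ddc was lower (-1.02, adjusted p = 0.00078) and Cobl was not called (-0.34, adjusted p = 0.117), and neither was called in GM.

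Ndn (NCBI Gene 17984, chr7:62348277-62349928), the gene of necdin, a paternally expressed growth suppressor that binds E2F1 and promotes muscle differentiation, stayed between 47 and 89 counts in every library. Its counts with DMSO were 65 and 60 in GM, 72 and 63 at 24 h, and 47 and 48 at 48 h, and none of the 3 DMSO stage comparisons passed the test. With PFI-3 they were 51 and 54, then 89 and 77, then 85 and 65. In CPM, PFI-3 lay below DMSO in GM and above it at both DM stages without overlap. The level at 48 h was 151% of DMSO (5.87 ± 1.12 against 3.87 ± 0.0738 CPM, SD, n = 2 each), and the log2 fold change of 0.60 (SE 0.20) was called at an adjusted p of 0.0449. That call was lost with DESeq2, without a low-count filter and without 3 of the 4 libraries of that stage (both DMSO replicates and PFI-3 replicate A), with adjusted p-values up to 0.312. Of the 7 tested necdin and MAGE partners, E2f1, a driver of S phase entry, rose with PFI-3 in GM (0.32, SE 0.08, adjusted p = 0.0229) and at 48 h (1.10, SE 0.09, adjusted p = 4.37e-06). Cdk1, the mitotic kinase, rose with it at 48 h (0.96, SE 0.08, adjusted p = 7.17e-06). The shares of all genes called higher were 5.46% in GM and 13.4% at 48 h.

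Peg10 (NCBI Gene 170676, chr6:4747306-4760517) and Sgce (20392, chr6:4674350-4747204) start back to back, with 101 bases between the gene bounds, and are both paternally expressed. Peg10 derives from a retrotransposon and is required for the placenta. Its DMSO counts were 1095 and 1903 in GM, 1716 and 1783 at 24 h, and 706 and 710 at 48 h, against 458 and 860, 933 and 981, and 969 and 1062 with PFI-3. The PFI-3 libraries were the lower ones in GM and at 24 h and the higher ones at 48 h, without overlap at any stage. With DMSO Peg10 fell from 24 h to 48 h by 1.25 on the log2 scale (SE 0.24, adjusted p = 0.000979), whereas with PFI-3 the mean CPM at 48 h was 1.09 times that at 24 h. In GM Peg10 was at 41.8% of DMSO with PFI-3 (47.3 ± 19.8 against 113 ± 38.6 CPM, SD, n = 2 each), which is -1.26 on the log2 scale (SE 0.24, adjusted p = 0.00704). At 24 h it was at 53.2% (-0.91, SE 0.23, adjusted p = 0.015), and at 48 h at 138% (0.46, SE 0.24, adjusted p = 0.182). Fitted on the 4 libraries of a stage alone, Peg10 kept a log2 fold change of -1.24 in GM but was not called there (adjusted p = 0.256), and it was called higher at 48 h (0.46, adjusted p = 1.97e-06). Blocking on the letters A and B in that fit restored the GM call (-1.26, adjusted p = 4.76e-05). The 24 h call was lost without any 1 of its 4 libraries (adjusted p up to 0.107).

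Sgce, the gene of epsilon-sarcoglycan, a membrane protein of the dystrophin-associated complex, was not called with PFI-3 at any stage. Its DMSO counts were 269 and 260 in GM, 370 and 398 at 24 h, and 343 and 388 at 48 h, and with PFI-3 229 and 286, 438 and 447, and 434 and 425. With DMSO it rose 1.49-fold by 24 h (log2 fold change 0.58, SE 0.11, adjusted p = 0.000643) and was 1.48-fold above GM at 48 h (0.57, SE 0.11, adjusted p = 0.000516). The PFI-3 log2 fold changes were -0.12, 0.16 and 0.17 in GM, at 24 h and at 48 h, with SEs of 0.10 to 0.11 and adjusted p-values of 0.523, 0.283 and 0.257, although the PFI-3 libraries were the higher ones at both DM stages without overlap. In the sarcoglycan complex, Dag1, the gene of dystroglycan, and Sgca were lower with PFI-3 at 24 h and at 48 h, and Sspn at 48 h. Sgca, the muscle-specific alpha subunit, was at 11 ± 0.305 against 29.5 ± 0.774 CPM at 24 h (log2 fold change -1.43, SE 0.17, adjusted p = 9.12e-05). Dag1 was at 728 ± 16.3 against 1344 ± 47.2 CPM at 24 h (a log2 difference of -0.88, SE 0.08, adjusted p = 2.19e-05). Of the 8 tested retrotransposon-derived genes listed beside Peg10, 2 fell (Rtl8a and Arc) and 1 rose (Pnma2) with PFI-3 in GM. At 24 h 1 rose (Rtl5), and 2 rose at 48 h (Pnma2 and Rtl5). Across all genes 6.15% were called lower and 5.46% higher in GM, and 12.2% and 13.4% higher at 24 h and 48 h. Pnma2 and Rtl5 were near the floor: with PFI-3 at 48 h they were at 0.90 against 0.0816 and 2.62 against 0.897 CPM.

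Impact (NCBI Gene 16210), a paternally expressed gene whose protein competes for GCN1 and so restrains the kinase GCN2, was the member that rose with PFI-3 at all 3 stages. Its DMSO counts were 931 and 1143 in GM, 1151 and 1043 at 24 h, and 712 and 755 at 48 h. With PFI-3 they were 1666 and 1482, then 1529 and 1425, then 1126 and 1120. Every PFI-3 library was above both DMSO libraries of its stage in CPM. The level was 144% of DMSO in GM (113 ± 11 against 78.7 ± 8.06 CPM, SD, n = 2 each), 131% at 24 h (113 ± 5.42 against 86.0 ± 7.43) and 147% at 48 h (87.8 ± 0.538 against 59.8 ± 2.73). In GM the log2 fold change was 0.53 with an SE of 0.09 (adjusted p = 0.00524). It was 0.39 with an SE of 0.09 at 24 h (adjusted p = 0.0115), 0.55 with an SE of 0.10 at 48 h (adjusted p = 0.00122) and 0.49 with an SE of 0.06 averaged over the stages (adjusted p = 0.000159). None of the 3 differences between stages in the PFI-3 effect passed the test (adjusted p 0.476 to 0.931). In a fit of the 4 GM libraries alone the GM difference was 0.54 and not called (adjusted p = 0.212), and blocking on the letters A and B it was 0.54 and called (adjusted p = 0.0153). The 24 h call was lost without DMSO replicate B or PFI-3 replicate A (adjusted p up to 0.115). With DMSO, Impact fell from 24 h to 48 h by 0.52 (SE 0.10, adjusted p = 0.000823) on the log2 scale.

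In the GCN2 arm of the amino acid response, 6 of the 7 listed genes had values and were tested. Trib3, a target of the arm, was the only 1 of the 6 called in GM, higher with PFI-3 at 33.6 ± 30.0 against 8.16 ± 1.10 CPM (SD, n = 2 each). Its log2 fold change was 2.04 (SE 0.50, adjusted p = 0.0232), and the 2 PFI-3 libraries were far apart. At 24 h 3 of the 6 fell: Abce1, Eif2s1 and Atf4, the transcription factor translated when eIF2 is phosphorylated (226 ± 0.745 against 429.8 ± 3.22 CPM, log2 fold change -0.93, SE 0.18, adjusted p = 0.00398). At 48 h only Eif2ak4, the gene of GCN2, was called, and it rose by 0.33 (SE 0.10, adjusted p = 0.024). Of all genes tested, 5.46% were called higher in GM, 11.4% lower at 24 h and 13.4% higher at 48 h.

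Zdbf2 (NCBI Gene 73884, chr1:63200358-63314576), a paternally expressed zinc finger gene known for its part in feeding and growth after birth, was listed at 0 in all 4 GM libraries. Its counts were 6 and 3 with DMSO and 3 and 2 with PFI-3 at 24 h, and 22 and 20 with DMSO and 21 and 20 with PFI-3 at 48 h. The counts of the treatments met at 24 h and overlapped at 48 h (adjusted p = 0.428 and 0.876). Against a floor of 3 counts per library, its level at 48 h was at least 7.5-fold higher than in GM with DMSO and at least 7.42-fold higher with PFI-3. It passed the low-count filter only through its 48 h libraries.

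Counting over the members, 6 of 9 were called higher with DMSO at 24 h than in GM, where 30.6% of 12545 genes tested were called higher and 60.6% in either direction. At 48 h against GM the same 6 members were higher (Mest, Plagl1, Peg3, Sgce, Grb10 and Zdbf2) and Impact and Peg10 lower, beside 37.2% and 35.9% of all genes and 73.1% in all. Between 24 h and 48 h, 3 rose (Plagl1, Grb10 and Zdbf2) and 2 fell (Impact and Peg10), beside 24.2% and 23.9% and 48.1% in all. These counts include Grb10 and Zdbf2, which the filter kept only for their level in DM (for Zdbf2 at 48 h only). The counts thus support nothing about the members as a set.

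With PFI-3, 2 of 9 members were called in GM, Impact higher (beside 5.46% of all genes tested) and Peg10 lower (beside 6.15%), where 11.6% were called in either direction. At 24 h 4 of 9 were called, Impact higher and Mest, Plagl1 and Peg10 lower, beside 12.2% and 11.4% of all genes and 23.6% in all. At 48 h 4 of 9 were called, Impact and Ndn higher and Mest and Plagl1 lower, beside 13.4% and 14.0% and 27.4% in all. Averaged over stages 2 of 9 were called, Impact higher and Plagl1 lower, beside 11.2% and 12.9% and 24.1% in all. The median log2 fold change of the 9 was 0.00, -0.10 and 0.16 in GM, at 24 h and at 48 h, against -0.01, -0.001 and 0.001 over all genes tested. Members thus moved in both directions at each stage. The counts fell to 2 at 24 h without DMSO replicate B or PFI-3 replicate A, and to 2 at 48 h without replicate A of either treatment. The comparisons of PFI-3 with DMSO and those between DMSO stages share their DMSO libraries.

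**Figure D3:**
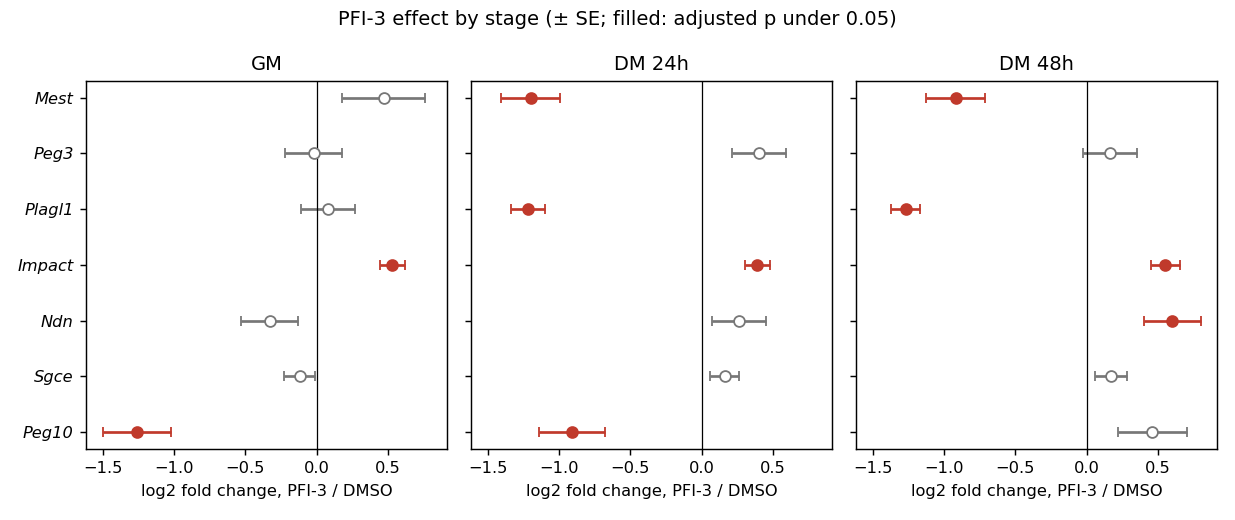
Log2 fold change of PFI-3 over DMSO (x axis, ± SE) in GM, at 24 h and at 48 h for the 7 members other than Grb10 and Zdbf2 (y axis). Filled red points passed an adjusted p of 0.05: Impact lies right of 0 in all 3 panels, Plagl1 and Mest lie left of 0 at both DM stages, and Peg10 passes from -1.26 in GM to 0.46 at 48 h.

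Set among all genes tested, Plagl1 and Mest lay near the lower end of the PFI-3 effects in DM. At 24 h 2.93% of genes had a lower log2 fold change than Plagl1 and 2.97% a lower one than Mest. At 48 h these shares were 3.05% and 5.28%. Peg10 was at 1.62% in GM, 4.37% at 24 h and 88.6% at 48 h. Impact was at 91.6%, 85.9% and 91.0%, and Peg3 and Sgce lay between 33.0% and 86.4% at all 3 stages.

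**Figure D4:**
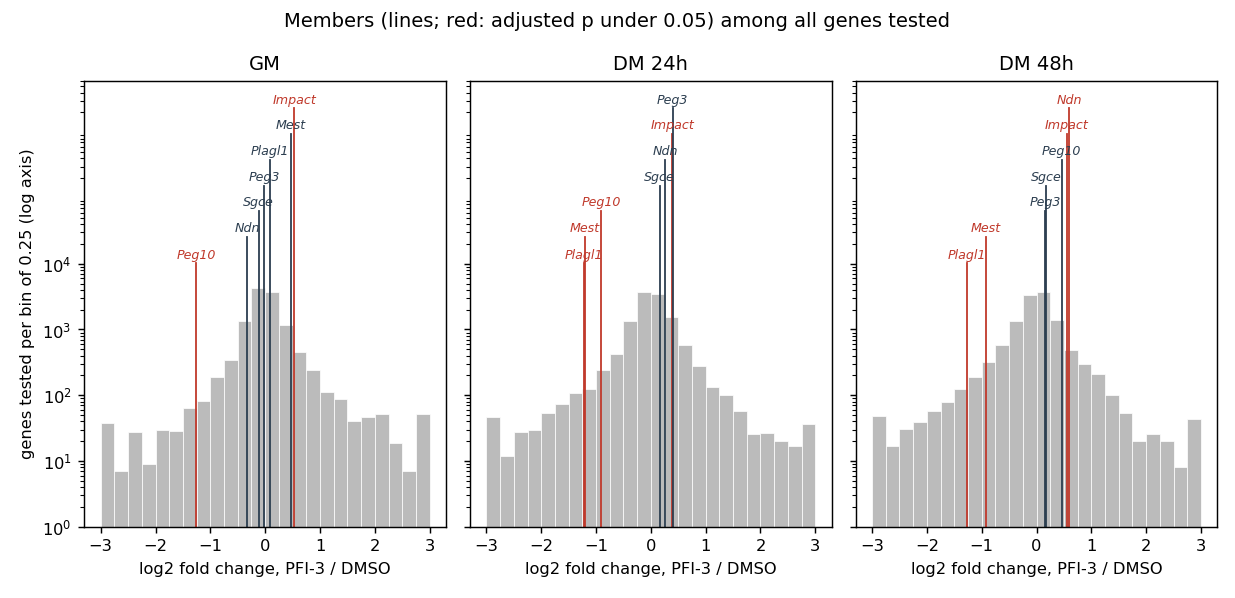
Number of the 12545 genes tested (y axis, log scale) by log2 fold change of PFI-3 over DMSO (x axis, bins of 0.25, the end bins also holding genes beyond 3 in size) at each stage. Vertical lines mark 7 members, red where the adjusted p was under 0.05, and their heights only separate the names. Peg10 stands at -1.26 in GM, and Plagl1 and Mest stand at -1.22 and -1.20 at 24 h.

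Whether the PFI-3 effect differed between stages was tested directly. Between 24 h and GM the effect differed for 2 of 9 members, beside 3.37% of all genes (1.78% higher and 1.59% lower): Mest by -1.67 (SE 0.36, adjusted p = 0.0289) and Plagl1 by -1.29 (SE 0.22, adjusted p = 0.0103) on the log2 scale. Between 48 h and GM it differed for 4 of 9, beside 14.5% (8.25% higher and 6.29% lower): Mest by -1.39 (SE 0.36, adjusted p = 0.0229), Plagl1 by -1.35 (SE 0.21, adjusted p = 0.00149), Ndn by 0.93 (SE 0.29, adjusted p = 0.0487) and Peg10 by 1.72 (SE 0.34, adjusted p = 0.00542). Between 48 h and 24 h only Peg10 was called, at 1.37 (SE 0.33, adjusted p = 0.0198), beside 12.1% of all genes (7.12% higher and 4.97% lower). The Plagl1 and Peg10 differences between 48 h and GM were called in all 17 alternatives. The Plagl1 difference between 24 h and GM was lost without DMSO replicate B or PFI-3 replicate A of 24 h and in a fit of the 8 libraries concerned alone (adjusted p up to 0.0587). The Mest differences were lost in a fit of their 8 libraries alone, without PFI-3 replicate B of GM, without any 1 library of the DM stage and in 2 further alternatives (adjusted p up to 0.131). Blocked on A and B within each stage, the fits of 8 libraries called Plagl1 at 24 h against GM (adjusted p = 0.00653) and Mest at 24 h and at 48 h against GM (0.000505 and 0.000987). Without DMSO replicate B of GM they were -2.55 and -2.27. The Ndn difference was lost in 10 of 17 alternatives, 6 of them left-out libraries (adjusted p up to 0.194). The Peg10 difference between DM stages was lost without any 1 of the 8 libraries.

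The other imprinted genes give the background for the members. Of 59 listed, 44 had values and 33 were tested. With PFI-3 in GM 1 rose (Sfmbt2) and 1 fell (Gatm). At 24 h 1 rose (Slc22a18) and 6 fell (Cdkn1c, Igf2, Copg2, Cobl, Ddc and Gatm), and at 48 h 1 rose (Atp10a) and 8 fell (Cdkn1c, Copg2, Ddc, Gab1, Gatm, Cd81, Gnas and Zim1). Across all genes 11.4% and 14.0% were called lower at these stages and 12.2% and 13.4% higher. In GM the shares of all genes were 6.15% lower and 5.46% higher. The median log2 fold change of the 33 was -0.02, -0.08 and -0.15, against -0.01, -0.001 and 0.001 over all genes tested.

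Cdkn1c, the maternally expressed cyclin-dependent kinase inhibitor p57, had DMSO counts of 27 and 57 in GM, 3610 and 3870 at 24 h, and 12617 and 12621 at 48 h, against 24 and 37, 1089 and 1064, and 4345 and 4376 with PFI-3. Its level with PFI-3 was 28.0% of DMSO at 24 h (log2 fold change -1.84, SE 0.12, adjusted p = 9.99e-07) and 33.1% at 48 h (-1.59, SE 0.11, adjusted p = 1.56e-06). Igf2, the paternally expressed growth factor, had DMSO counts of 20 and 21, 1799 and 1872, and 10645 and 9961 over the stages. With PFI-3 they were 19 and 10, 894 and 937, and 9705 and 9519. Igf2 was at 48.5% of DMSO at 24 h (-1.04, SE 0.08, adjusted p = 5.4e-06) and at 89.5% at 48 h (-0.16, SE 0.08, adjusted p = 0.142). Igf2r, the maternally expressed receptor that clears IGF2, was not called with PFI-3 at any stage (log2 fold changes 0.39, -0.09 and -0.12), nor were Usp29, Ppp1r9a and Nnat. Usp29, Ppp1r9a and Nnat reached at most 31, 21 and 29 counts in a library, so depth limits what could be called for them. Gnas, the gene of the stimulatory G protein alpha subunit, fell by 0.24 at 48 h (SE 0.07, adjusted p = 0.0206).

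**Figure D5:**
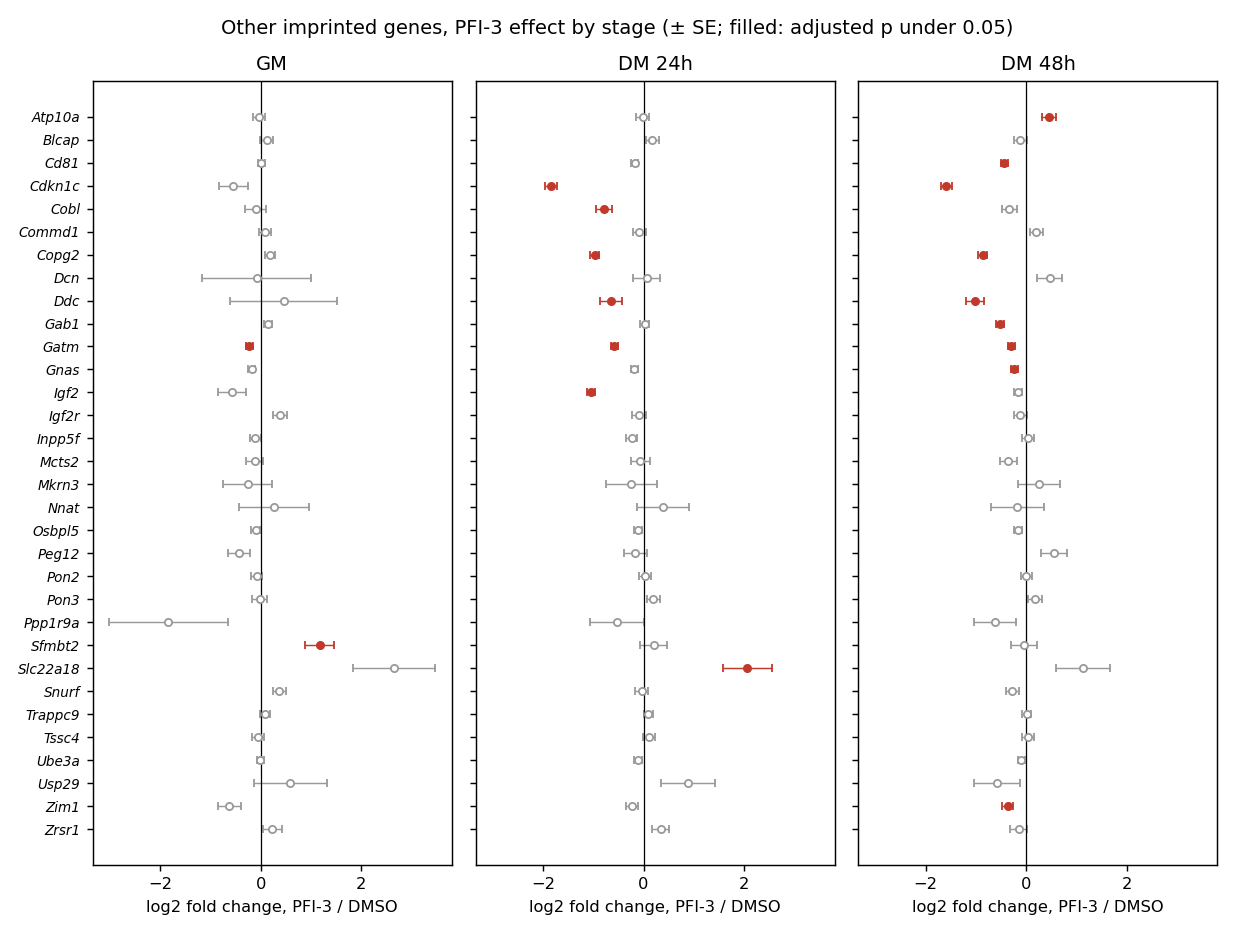
Log2 fold change of PFI-3 over DMSO (x axis, ± SE) for 32 of the 33 other imprinted genes tested (y axis) in GM, at 24 h and at 48 h. Filled red points passed an adjusted p of 0.05, and Snrpn, which shares reads with Snurf, is not drawn. Cdkn1c stands farthest to the left of the called genes at both DM stages, at -1.84 and -1.59.

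Genes listed for imprint maintenance, which include the TET enzymes beside factors that keep methylation, were called with PFI-3 mainly at 48 h. With DMSO, Dnmt1, Uhrf1, Smchd1, Trim28, Setdb1 and Zfp57 were called lower than in GM at both DM stages, and Ctcf at 48 h only. Tet1, Tet2, Tet3, Dnmt3a and Zfp445 were called higher at both. The shares of all genes called were 30.0% lower and 30.6% higher at 24 h, and 35.9% and 37.2% at 48 h. Averaged over stages, Zfp445 was called higher with PFI-3 and Tet3 and Zfp57 lower, beside 11.2% and 12.9% of all genes. Of 13 tested, 1 fell with PFI-3 at 24 h (Tet3), beside 11.4% of all genes called lower. At 48 h 5 rose (Uhrf1, Dnmt1, Smchd1, Ctcf and Trim28) and 3 fell (Tet1, Tet2 and Tet3, the enzymes that oxidise methylcytosine). Across all genes 13.4% were called higher and 14.0% lower at 48 h. Uhrf1, which brings the maintenance methyltransferase to newly copied DNA, was at 117 ± 3.48 against 47.1 ± 1.81 CPM (SD, n = 2 each; log2 fold change 1.31, SE 0.10, adjusted p = 2.35e-06), and Dnmt1, that methyltransferase, at 208 ± 2.48 against 127 ± 3.05 CPM (0.71, SE 0.06, adjusted p = 7.26e-06). DNA methylation was not measured. For the Notch pathway, on which Dlk1 is known to act, 7 of 10 tested genes fell with PFI-3 at 24 h and 5 of 10 at 48 h. The shares of all genes called lower were 11.4% and 14.0%. Heyl, a Notch target, was at 56.4 ± 2.03 against 148 ± 3.49 CPM at 24 h (-1.39, SE 0.14, adjusted p = 3.45e-05), and Notch1 at 152 ± 5.30 against 288 ± 1.42 CPM (-0.92, SE 0.11, adjusted p = 9.27e-05). The median of the 10 was -0.69 at 24 h and -0.42 at 48 h, against -0.001 and 0.001 over all genes tested.

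Members differed in how their levels ran over the 12 libraries, which share cells, stage and depth, so the correlations here are descriptions. On the log2 CPM scale, Mest, Peg3, Plagl1 and Sgce correlated with each other at r of 0.80 to 0.95, and Peg10 with them at 0.05 to 0.24. Impact correlated with the other 5 of these genes at -0.57 to -0.18. In a search of the 10367 genes that averaged 5 CPM or more, those most like Mest were Notch3 (r = 0.998) and Igfbp3 (0.996), and those most like Plagl1 were Frmd4b and Foxo6 (0.995 each). Peg3 was closest to Man2a2 (0.995) and Tspan7 (0.992), Sgce to Rgs2 (0.984) and Paqr7 (0.975), and Impact to Naaa (0.976) and Sept6 (0.961). For Peg10 the nearest genes were Ssr2 (0.962) and Surf4 (0.923).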

How the data were processed

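RNA-seq tables of 12 libraries of C2C12 cells were used, 1 per library. Per the labels, the sequencing provider prepared the libraries and ran the downstream processing. The submitters' processing notes name HISAT, StringTie, Cufflinks, Bowtie, RSEM and DESeq2 and the build mm10, without roles or versions. The authors deposited an expected count, an FPKM value (fragments divided by transcript length and by library size) and a transcript length per gene, per the file headers. Strand use in counting is not given in the sources used here. A gene missing from a table was taken as 0. Between 93.3% and 93.7% of the expected counts of a library were whole.

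Expected counts were rounded and tested with edgeR 4.0.16 (R 4.3.3), quasi-likelihood test, TMM scaling, 1 model of 6 groups, with filterByExpr keeping 12545 of 16288 genes. Interaction contrasts compared PFI-3 effects between stages, and a model with additive stage and treatment terms gave the average. Benjamini-Hochberg adjusted p under 0.05 was a call, over all genes tested. All members were described in every comparison. From other lists, values were given for at most the 3 genes of lowest p per comparison and a few fixed imprinted genes, other called genes were named without values, and Ddc and Cobl were picked after their values were seen. Some results of the sarcoglycan list are not reported here. Members and lists were chosen with earlier results of these data known. In a simulation of the DM 24h comparison on 12545 genes, edgeR recovered 93.5% of 200 genes changed 2-fold, with 8.3% false calls. It gave each gene the same spread in all groups and no effect of the letters A and B. Only genes above a minimum mean count were changed. The rates thus do not describe GM, where the duplicates were farther apart, or genes of low count. Alternatives used DESeq2 1.42.0, limma 3.58.1 on log2(FPKM + 1) and log2(FPKM + 0.1), other filters and scalings, a replicate block and left-out libraries. A floor of 3 counts and exact 95% intervals cover counting error only, since reads amplified by PCR are not independent molecules. Promoter sequences and coordinates are from RefSeq, GRCm38.p6, and Peg10, Sgce and Impact had no entry in the promoter table.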

Additional observations from a re-analysis of the deposited data

Results flagged for a closer look

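Differences in the PFI-3 effect between stages that passed the interaction test are listed here, each as a log2 difference. Between 24 h and GM these were Mest at -1.67 and Plagl1 at -1.29: Plagl1 was at 105% of DMSO in GM and 43.0% at 24 h, and Mest at 139% and 43.5%. The Mest difference from DMSO in GM was not called, and its GM libraries overlapped. Between 48 h and GM they were Mest at -1.39, Plagl1 at -1.35, Ndn at 0.93 and Peg10 at 1.72. Ndn was at 79.3% of DMSO in GM and 151% at 48 h, and Peg10 at 41.8% and 138%. Between 48 h and 24 h the Peg10 effect differed by 1.37, from 53.2% of DMSO to 138%. The GM duplicates that enter 6 of these 7 differences were farther apart than the DM duplicates.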

How the results depend on the processing

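The 87 member results were recomputed in 1282 combinations of result and alternative. None of the called differences changed direction, 1195 kept their side of the threshold, 61 lost a call and 26 gained one. A further 35 differences, uncalled in both fits, changed sign and are counted among the 1195. Fitting only the libraries compared moved the number of members called from 2 to 0 in GM and from 4 to 7 at 48 h. For the PFI-3 effect it moved from 2 to 0 and from 4 to 2 at 24 h and 48 h against GM, and from 1 to 3 for 48 h against 24 h. All genes called, of 12545 tested, moved the same way in each of these comparisons. In that order they went from 1456 to 38, 3438 to 5644, 423 to 92, 1824 to 1033 and 1517 to 4170. With the replicate block within stage added to that fit the number of members called was 2 in GM, 7 at 48 h, and 3 for each of the 3 effects between stages. DESeq2 called 2 members at 48 h, and 1 and 2 for the effects at 24 h and 48 h against GM, beside 2581, 460 and 1438 of all genes. Limma on log2(FPKM + 0.1) called 1 for the effect at 24 h against GM, beside 419 of all genes. The causes were not tested.

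Leaving out 1 library gave 2 to 3 members called in GM, 2 to 3 at 24 h, 2 to 3 at 48 h, 0 to 3 and 2 to 4 for the effects at 24 h and 48 h against GM, and 0 for 48 h against 24 h. The pair then left with 1 library is assumed to vary like the others, and the number of all genes called also moved, as given below.

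Same-letter deviations correlated between treatments at 0.488 in GM, 0.018 at 24 h and 0.037 at 48 h, so the letters A and B went together in GM only. The main model used no pairing, since the labels do not say what a letter stands for. The replicate block over all libraries changed no member's call in any of the 10 comparisons. With it 1489, 3040 and 3452 genes were called with PFI-3 in place of 1456, 2966 and 3438. That block fits the same letter effect in GM and DM, unlike the block within stage.

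Counts of all genes called also moved. When only the libraries compared were fitted, 38 genes were called in GM, 5603 at 24 h and 5644 at 48 h, and 922, 5715 and 6077 with the block. For the effects between stages the counts were 92, 1033 and 4170 without the block in place of 423, 1824 and 1517, and 803 and 4344 with it for the first and the third. Without GM with DMSO replicate B, 2742 genes were called in GM. Without 1 DM library, 1323 to 1471 were called at 24 h and 1961 to 2092 at 48 h. For the effects between stages, leaving out 1 library gave 89 to 1002 for 24 h against GM, 1018 to 2935 for 48 h against GM and 794 to 861 for the third.

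Among the members, depth limits Grb10 and Zdbf2, at most 39 and 22 counts. With 2 libraries a group, the estimate of the spread comes from the model shared by all 6 groups, and GM and DM duplicates differ in spread.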
